A study of Mus musculus with 36 samples.

Results

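Very long messenger RNAs are a characteristic part of the neuronal transcriptome. Giant transcripts in neurons typically encode scaffold, cytoskeletal and adhesion proteins, ion channels and large enzymes, or end in extended 3' untranslated regions, and a few do not code for protein. They take long to transcribe, they yield many sequencing fragments per molecule, and a single break anywhere along the molecule separates its ends. The transcripts described here are the 205 of 115270 listed mouse transcripts (0.178%) that are at least 12000 bases long and reached a mean of at least 5 CPM (the estimated count per 1000000 counts of the library) in resting wild-type neurons. Of the 338 transcripts of that length, 316 were above 0 at rest and 133 stayed below 5 CPM. The share that reached 5 CPM was 60.7% among these very long transcripts and 15.8% among shorter ones. A long transcript reaches a given CPM with fewer molecules, so this difference is partly built in. The members were chosen by their measured level in the 5 resting wild-type libraries, so that level is given below as a description only.

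The study cultured primary cortical neurons from E16.5 mouse embryos for 7 days in vitro and asked what the loss of ACTL6B does to the resting and the activity-dependent transcriptome. ACTL6B is a neuronal subunit of the BAF chromatin remodelling complexes, which move and evict nucleosomes. Wild-type (WT) and ACTL6B -/- (KO) neurons were held at rest for 2 h with TTX/APV, that is tetrodotoxin, which blocks voltage-gated sodium channels, and APV, which blocks NMDA receptors. There were 5 WT and 7 KO resting RNA libraries. A further 5 WT libraries came from neurons given 2 h of TTX/APV and then 1 h of KCl, which depolarises the membrane, 4 came from WT neurons given TTX/APV for 7 h, and 3 from WT neurons given 7 h of TTX/APV with 6 h of KCl. All KO libraries were resting, so the response of KO neurons to KCl is not analysed here. Primary cortical cultures can hold other cells beside neurons, and the defining markers of neurons and glia, like the level of Actl6b itself, were not analysed here because no table pairs the transcript identifiers with gene symbols. The members are therefore named by their length in bases.

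The estimated counts of a library summed to between 5873349 and 7578714 in resting WT, 6135380 and 7480901 in resting KO, and 6902985 and 8015063 after 1 h of KCl. The sums were lower after 7 h of TTX/APV (3569516 to 4020984) and after 6 h of KCl (3627450 to 4051922). The latter 2 groups also held more of their counts on transcripts under 500 bases, at 7.15% ± 1.44 (SD, n = 4) and 6.89% ± 1.01 (SD, n = 3), against 4.56% ± 0.273 (SD, n = 5) in resting WT, 5.08% ± 0.551 (SD, n = 7) in resting KO and 4.16% ± 0.343 (SD, n = 5) after 1 h of KCl. Comparisons within the shallower groups or within the deeper groups do not cross this step. The comparison of 7 h with 2 h of TTX/APV does. The difference of the 6 h and the 1 h KCl response sets a response in the shallower groups against one in the deeper groups.

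The members ran from 12036 to 123179 bases with a median of 14274. There were 96 under 14000 bases, 30 of 16000 to 20000 and 16 of 20000 or more. At the edge of the length rule, the shortest member had 12036 bases and 30.3 CPM and the longest transcript left out had 11995 bases and 33.1 CPM. At the edge of the level rule, a member of 13443 bases had 5.07 ± 4.69 CPM (SD, n = 5) and a transcript of 13389 bases that was left out had 4.96 ± 0.912 CPM (SD, n = 5).

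In resting WT the members spanned 5.07 to 1681 CPM around a median of 81.7, against a median of 17.2 CPM over the 18144 shorter transcripts that also reached 5 CPM. CPM does not correct for length, and a long transcript collects more fragments per molecule. In TPM, the deposited unit that corrects for length, the members' median was 8.51 and that of the shorter transcripts 11.2. The members' range ran from 0.219 to 177 TPM, and the lowest of the shorter transcripts had 0.729. Both sets were cut at 5 CPM, which lets long transcripts in at lower TPM. The order of these medians is thus partly built in by the rule. The 10 members with the most counts held 29.4% of all member counts and the top 50 held 70.6%. On the TPM scale the highest were the member of 12346 bases at 177 TPM, that of 14342 bases at 173 TPM and that of 14305 bases at 136 TPM. The member of 24060 bases, highest in CPM at 1681 ± 85.0 (SD, n = 5), had 104 TPM. The longest member had 801 CPM but 9.64 TPM, and the second longest, of 81843 bases, was the lowest of all on the TPM scale at 0.219.

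**Figure D1:**
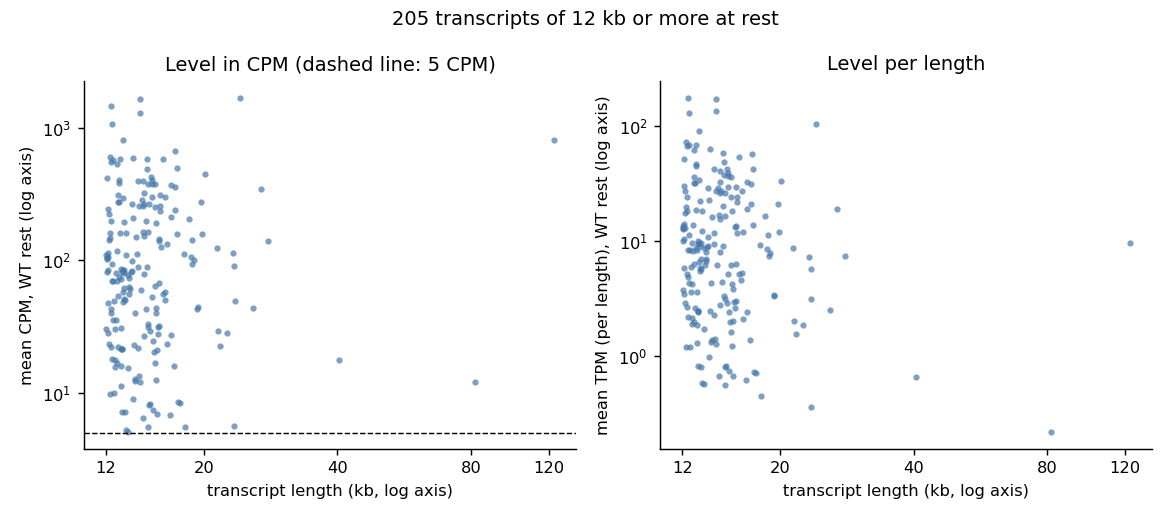
Mean level of each of the 205 members in resting WT (n = 5 libraries) against its length in kilobases, in CPM on the left and in TPM, which corrects for length, on the right; all axes are logarithmic and each point is 1 transcript. Levels spread from 5.07 to 1681 CPM with most members under 20 kb, and the dashed line marks the 5 CPM that chose the members.

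The reproducibility of the members depended on their level. In the members of 50 CPM or more, the median coefficient of variation over the resting WT libraries was 10.8%, next to 10.3% for shorter transcripts of that level. In the 17 members of 5 to 10 CPM it was 48.3%, against 27.2% for shorter ones. The same members had 53.6% in KO, 44.5% after 1 h of KCl and 41.2% after 7 h of TTX/APV, against 30.5%, 26.0% and 31.3% for the shorter ones. After 6 h of KCl the values were 31.8% and 33.2%, the other way round. Zeros were seen in at least 1 library for 12 members (5.85%) and for 14.7% of the shorter transcripts.

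As a group the members took up more of the library after 7 h of TTX/APV than after 2 h. Their share of all estimated counts in the resting WT libraries ran from 3.48% to 3.76%, with a mean of 3.61% ± 0.139 (SD, n = 5). In resting KO it was 3.47% ± 0.137 (SD, n = 7), from 3.23% to 3.64%, and after 1 h of KCl 3.75% ± 0.137 (SD, n = 5), from 3.57% to 3.93%. These 3 sets of libraries overlapped. After 7 h of TTX/APV the share was 4.88% ± 0.156 (SD, n = 4), from 4.73% to 5.07%, and after 6 h of KCl 5.12% ± 0.197 (SD, n = 3), from 4.89% to 5.24%. All 7 of these libraries lay above all 17 others.

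The longest member alone carried part of that step. Without it the mean shares were 3.53% in resting WT, 4.55% after 7 h of TTX/APV and 4.82% after 6 h of KCl. On the TPM scale the libraries with 7 h of TTX/APV did not all lie above the others. The members' share of TPM was 0.363% ± 0.0190 (SD, n = 5) in resting WT, 0.332% ± 0.0261 (SD, n = 7) in resting KO and 0.399% ± 0.0275 (SD, n = 5) after 1 h of KCl. It was 0.407% ± 0.0383 (SD, n = 4) after 7 h of TTX/APV and 0.448% ± 0.0415 (SD, n = 3) after 6 h of KCl. The 7 h TTX/APV libraries, from 0.353% to 0.438%, overlapped with those of resting WT (0.345% to 0.386%) and of 1 h of KCl (0.360% to 0.427%). The part of the higher counts on transcripts under 500 bases and of the lower depth in these results was not tested.

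**Figure D2:**
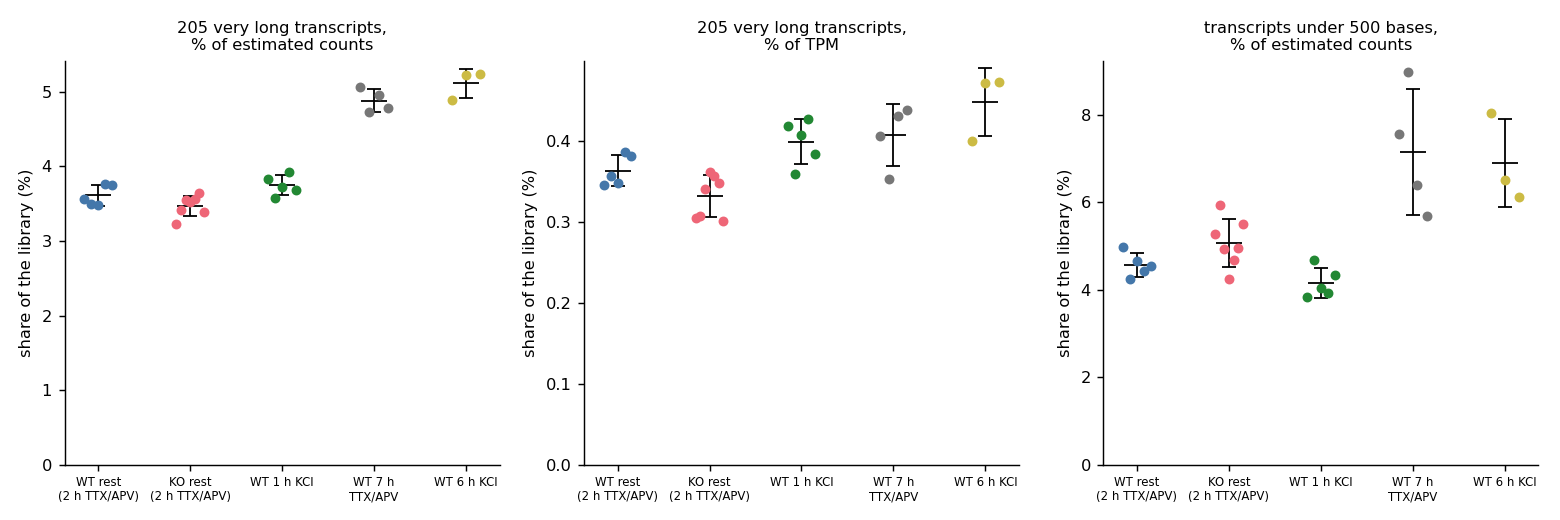
Share of each library, in percent, held by the 205 members in estimated counts (left) and in TPM (middle), and by transcripts under 500 bases in estimated counts (right); 1 point per library, bars at mean ± SD. In counts the members' share lies between 3.23% and 3.93% in the 17 libraries with 2 h of TTX/APV and between 4.73% and 5.24% in the 7 libraries with 7 h.

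KO and WT neurons at rest differed in few of the members. Of 204 members tested, 4 were higher and 16 lower in KO (edgeR quasi-likelihood test, Benjamini-Hochberg adjusted p under 0.05 over all transcripts tested), that is 1.96% and 7.84%. Over all transcripts tested the shares were 1.3% higher and 1.63% lower, and over the other transcripts of at least 5 CPM 1.76% and 2.77%. More counts give more calls, so the shorter transcripts were also weighted to the members' CPM classes, which gave 2.42% higher and 5.17% lower. In the class of 50 CPM or more, 14 of 128 members (10.9%) and 6.77% of the shorter transcripts were lower in KO. The median log2 fold change over the members was -0.01, against -0.03 over the shorter transcripts, so no shift of the whole set was seen. The resting WT libraries of this comparison are those that chose the members. In bulk libraries a lower level can mean fewer cells of a type or less RNA per cell, which cannot be told apart.

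The member of 16294 bases rose in KO and the member of 14754 bases fell, and both calls held under all 19 alternatives tried. The former had 56.8, 36.6, 50.8, 50.9 and 53.8 CPM in the resting WT libraries, and from 91.4 to 129 CPM with a median of 108 in the KO libraries. The groups did not overlap, and its log2 fold change was 1.14 ± 0.139 (SE), with an edgeR adjusted p of 0.00149. The latter had 40.1, 45.0, 37.3, 48.3 and 44.9 CPM in WT, and from 13.9 to 23.8 CPM with a median of 22.1 in KO. Again no KO library reached the WT range (log2 fold change -1.08 with SE 0.13, adjusted p = 0.00149 in edgeR).

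The next largest falls were in the members of 14845 and 13749 bases. The former averaged 89.5 ± 8.09 CPM (SD, n = 5) in WT and 50.5 ± 10.6 (SD, n = 7) in KO (log2 fold change -0.83, edgeR adjusted p = 0.00619). The latter averaged 99.1 ± 7.07 CPM (SD, n = 5) and 55.7 ± 5.16 (SD, n = 7), with a log2 fold change of -0.83 and an edgeR adjusted p of 0.000701. Over all 16 lower members the log2 fold changes ran from -1.08 to -0.24 with a median of -0.44, so that 1 of them fell by more than 2-fold. The 16 included 2 of the 3 highest members per length: that of 14342 bases went from 1659 ± 57.7 CPM (SD, n = 5) to 1397 ± 43.9 (SD, n = 7), and that of 14305 bases from 1297 ± 80.5 to 1049 ± 63.2 CPM. None of the 15 tested members of 20000 bases or more was called in either direction. The share called was 9.80% over all members and 8.62% over transcripts of 8000 to 12000 bases and at least 5 CPM. With 15 tested, a count of 0 cannot be told apart from these shares.

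The other 3 higher members were of 14814, 13938 and 12597 bases. The member of 14814 bases had 189, 201, 184, 233 and 186 CPM in WT and from 306 to 487 with a median of 335 in KO (log2 fold change 0.90 with SE 0.123, adjusted p = 0.00286 in edgeR). The member of 13938 bases was split within WT, at 27.9, 28.4 and 22.9 CPM in 3 libraries and 54.8 and 64.6 in the other two, while KO ran from 66.5 to 125 with a median of 93.9. Its log2 fold change was 1.23 ± 0.274 (SE) with an edgeR adjusted p of 0.0339. That call ended without KO culture 1-1, 3-2 or 4-7 (edgeR adjusted p = 0.0503, 0.064 and 0.0713) and without WT culture 3-4, 3-7 or 4-2 (0.0903, 0.0899 and 0.0829). The member of 12597 bases went from 17.8 ± 6.56 CPM (SD, n = 5) to 41.5 ± 12.7 (SD, n = 7), with an edgeR adjusted p of 0.0497 that passed in 4 of 19 alternatives only. Of the libraries left out singly, each of the 5 WT and KO 1-1, 2-3, 3-2, 3-3 and 4-7 took it to between 0.062 and 0.111.

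The count of 20 also depended on single libraries. It was 12 or 13 without KO culture 3-2 (13), 3-3 (13) or 4-7 (12), or without WT culture 3-4 (12), 3-7 (13), 4-2 (12) or 4-4 (12). The lower calls outnumbered the higher ones in each of these fits. Shares over shorter transcripts in the same fits are not given.

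**Figure D3:**
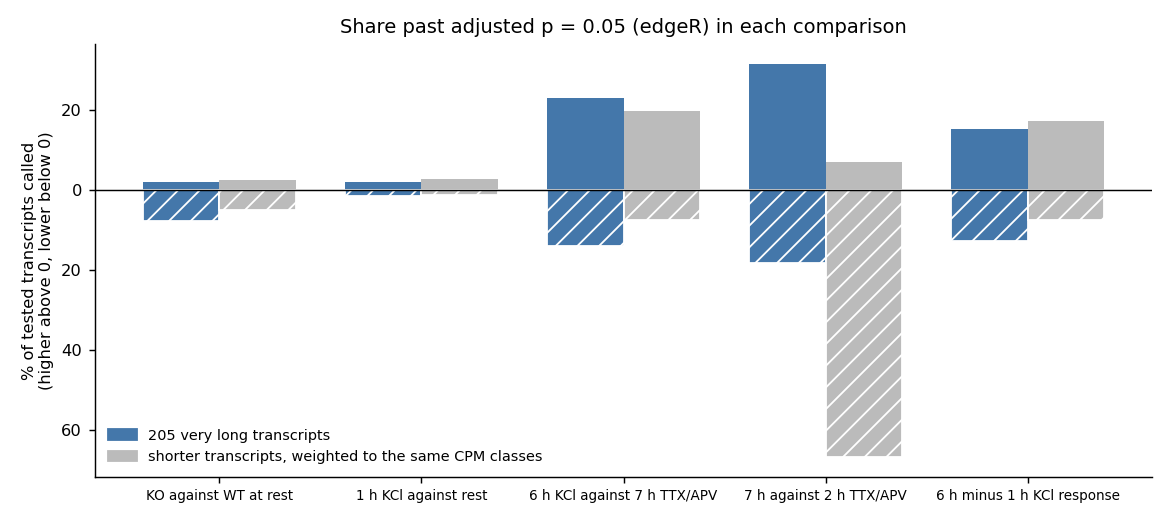
Percentage of tested transcripts with an edgeR adjusted p under 0.05 in each comparison, higher above 0 and lower (hatched) below. Blue bars are the 205 members. Grey bars are shorter transcripts of at least 5 CPM in resting WT, weighted to the members' CPM classes. Members and shorter transcripts lie close together in the comparisons with few calls, while at 7 h against 2 h of TTX/APV 31.5% of members and 6.87% of shorter transcripts were higher and 18.2% and 66.8% were lower.

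After 1 h of KCl few of the members had changed. Of 204 tested, 4 were higher and 3 lower than in resting WT (1.96% and 1.47%), next to 2.54% and 2% of all transcripts tested, 2.36% and 2.21% of the other transcripts of at least 5 CPM, and 2.70% and 1.37% after weighting to the members' CPM classes. The members' count of calls was thus near the background. Small positive values were common all the same: 142 of 204 members (69.6%) had a log2 fold change above 0, against 49.5% of the shorter transcripts. The medians were 0.07 and -0.00, and 0.01 over the shorter transcripts weighted to the members' CPM classes. At 50 CPM or more, 72.7% of members and 56.3% of shorter transcripts were above 0. Transcripts of 8000 to 12000 bases had a median of 0.08, so this small shift was not limited to the members. With the culture as a block, 3 members remained past the threshold, 2 higher and 1 lower. With DESeq2 there were 16 higher and 3 lower. Shares over shorter transcripts with the block or with DESeq2 are not given.

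The member of 15841 bases showed the steepest fall. It had 31.4, 35.7, 27.3, 31.9 and 33.8 CPM at rest and 3.66, 5.16, 4.10, 6.27 and 6.51 CPM after 1 h of KCl (log2 fold change -2.62 with SE 0.172, adjusted p = 1.47e-05 in edgeR). All 5 stimulated libraries lay far below the lowest resting one. In KO at rest it had 32.6 ± 3.42 CPM (SD, n = 7) and did not pass the test against WT (edgeR adjusted p = 0.934). The member of 14754 bases, lower in KO, also fell with KCl, from 43.1 ± 4.39 to 28.6 ± 3.00 CPM (SD, n = 5 each; edgeR adjusted p = 0.00791, and 0.0522 with the culture as a block). Both comparisons use the same resting WT libraries. The third was the lower expressed of 2 members of 12974 bases, at 16.0 ± 2.79 and 9.12 ± 1.66 CPM (SD, n = 5 each). Its edgeR adjusted p of 0.0224 became 0.0764 with the block, and between 0.0503 and 0.0603 without 1 h KCl culture 3-7, 4-2 or 4-4 or resting culture 3-7, 4-2 or 4-3.

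The member of 12629 bases showed the largest rise at 1 h. It had 61.1, 72.5, 80.7, 119 and 68.0 CPM at rest and 208, 274, 173, 229 and 175 CPM after 1 h of KCl, without overlap (log2 fold change 1.41 with SE 0.197, adjusted p = 0.0028 in edgeR). The member of 19300 bases went from 42.6 ± 7.42 to 67.6 ± 8.93 CPM (SD, n = 5 each; log2 fold change 0.68, edgeR adjusted p = 0.0123). The other two were smaller: the member of 13307 bases went from 109 ± 9.06 to 136 ± 4.75 CPM (edgeR adjusted p = 0.0167) and that of 14164 bases from 21.7 ± 2.51 to 30.3 ± 2.83 CPM (SD, n = 5 each; edgeR adjusted p = 0.0179). With the culture as a block the calls of 13307 and 14164 bases both ended (edgeR adjusted p = 0.053 and 0.0818). That of 14164 bases also ended without 1 h KCl culture 3-7 (0.0513) or 4-3 (0.053) or resting culture 4-2 (0.0555) or 4-4 (0.05, just above the threshold).

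After 6 h of KCl many more of the members had changed, in both directions. Against 7 h of TTX/APV alone, in libraries that the choice of members did not use, 46 of 201 were higher and 28 lower (22.9% and 13.9%; edgeR adjusted p under 0.05), 13 and 6 of them by at least 2-fold. The background was 8.46% higher and 6.88% lower over all transcripts tested and 12% and 8.18% over the other transcripts of at least 5 CPM. After weighting to the members' CPM classes it was 19.8% and 7.63%, so that most of the gap in the higher calls was met by transcripts of like CPM, while the lower calls remained at 13.9% against 7.63%. The median log2 fold change was 0.09, and 0.17 over the weighted shorter transcripts. By length, 10 were higher and 7 lower of 57 at 12000 to 13000 bases, and 7 and 12 of 36 at 13000 to 14000. There were 21 and 6 of 62 at 14000 to 16000 bases, 5 and 3 of 30 at 16000 to 20000, and 3 and 0 of 16 at 20000 or more. These counts were not in order of length, and no background of like CPM is given beside them.

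The split between the directions depended on how the libraries were scaled. With total counts in place of TMM factors, which moves the median of all tested transcripts by -0.20 on the log2 scale, 32 members were higher and 35 lower. The members' median minus that of the shorter transcripts without weighting was 0.03 under either scaling. With weighting to the members' CPM classes the order was reversed under TMM, at 0.09 in the members against 0.17. With the culture as a block, which leaves 3 pairs, 20 were higher and 3 lower. Shares over shorter transcripts with total counts or with the block are not given. The larger share of lower calls in members, 13.9% against 7.63%, is thus shown for the TMM fit without the block only.

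The 2 largest rises and the 2 largest falls are given with their identifiers. ENSMUST00000114132.7, of 12629 bases and already higher at 1 h, had 57.1, 69.5, 49.0 and 42.9 CPM after 7 h of TTX/APV and 694, 605 and 436 CPM after 6 h of KCl (log2 fold change 3.60 with SE 0.263, adjusted p = 0.000802 in edgeR). ENSMUST00000143031.7, of 21704 bases, had 29.8, 35.4, 29.6 and 39.8 CPM and then 219, 195 and 188 CPM (log2 fold change 2.77 with SE 0.147, adjusted p = 0.000465 in edgeR). In both, every KCl library lay several times above every TTX/APV library. Unlike the first, the second averaged 23.5 ± 3.65 CPM (SD, n = 5) after 1 h of KCl, within the range of the resting libraries.

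ENSMUST00000203043.1, of 15841 bases, had 119, 109, 100 and 119 CPM after 7 h of TTX/APV and 31.1, 31.2 and 43.2 CPM after 6 h of KCl (log2 fold change -1.48 with SE 0.131, adjusted p = 0.00115 in edgeR). This is the member that fell most at 1 h, and its level under TTX/APV was itself higher at 7 h than at 2 h. ENSMUST00000080665.9, of 13798 bases, had 47.1, 40.7, 42.2 and 42.5 CPM and then 16.6, 11.6 and 13.3 CPM (log2 fold change -1.44 with SE 0.177, adjusted p = 0.00321 in edgeR, and 0.0522 with the culture as a block). Its 3 KCl libraries were close to the 5.07 to 12.4 CPM of the resting ones.

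Of the other members that rose, 2 were among the 4 higher in KO. The member of 13938 bases had 40.7, 35.1, 30.0 and 38.3 CPM after 7 h of TTX/APV and 220, 202 and 148 CPM after 6 h of KCl (log2 fold change 2.60 with SE 0.194, adjusted p = 0.000731 in edgeR). The member of 14814 bases had 217, 232, 187 and 225 CPM and then 1164, 1212 and 1000.1 CPM (log2 fold change 2.58 with SE 0.131, adjusted p = 0.000465 in edgeR). In resting KO these averaged 92.8 and 370 CPM. The KO libraries had 2 h of TTX/APV and lie across the step in depth from the 7 h libraries, so these levels are not ranked against them. The other 2 members higher in KO, of 16294 and 12597 bases, did not pass at 6 h (edgeR adjusted p = 0.0811 and 0.0736).

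The KO and the 6 h KCl comparisons use different libraries, so their calls can be set side by side. Of the 16 members lower in KO, 7 were also lower at 6 h of KCl (43.8% of the former and 25% of the 28 latter), and 4 were higher. With the culture as a block at 6 h, 1 of these 7 and 1 of these 4 kept the 6 h call. Of the 502 shorter transcripts of at least 5 CPM lower in KO, 83 were lower at 6 h and 46 higher. The 7 included the member of 13125 bases, with log2 fold changes of -0.72 in KO and -0.82 at 6 h, and that of 17332 bases, with -0.57 and -0.86, which is the one that passed with the block. The 4 that went in opposite ways were of 14305, 12427, 14847 and 14342 bases. Their log2 fold changes were between -0.56 and -0.24 in KO and between 0.37 and 0.49 at 6 h. Of the 4 higher in KO, none was lower at 6 h and 2 were higher. Of the 319 shorter transcripts higher in KO, 22 (6.90%) were lower at 6 h and 94 (29.5%) higher, again without weighting. The overlap itself was not tested.

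**Figure D4:**
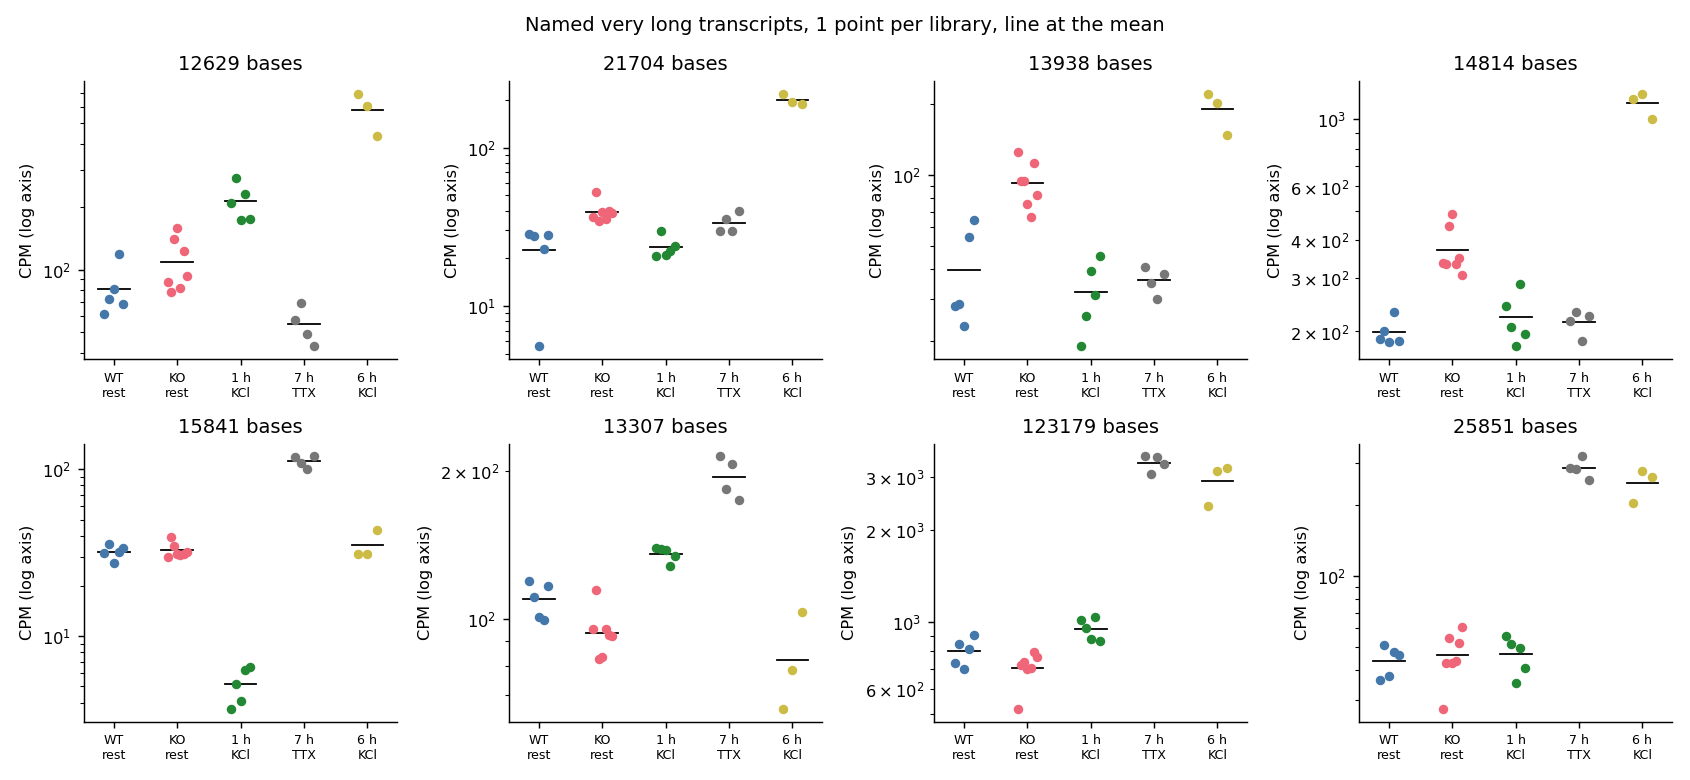
CPM (log axes) of 8 members in every library, by group, with a line at the group mean. The members of 12629, 21704, 13938 and 14814 bases are highest after 6 h of KCl, those of 15841 and 13307 bases are highest after 7 h of TTX/APV and lower with 6 h of KCl, and those of 123179 and 25851 bases are higher in all 7 libraries with 7 h of TTX/APV than in the others.

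The 6 h response differed from the 1 h response for a good share of the members. The former was measured in the shallower libraries and the latter in the deeper ones, and the part of depth in this was not tested. The difference of the 2 responses, tested over the 4 WT groups, passed in 31 of 205 members in the higher and in 26 in the lower direction (15.1% and 12.7%; edgeR adjusted p under 0.05). Over all transcripts tested these shares were 4.64% and 4.02%, over the other transcripts of at least 5 CPM 9.75% and 7.16%, and weighted to CPM classes 17.1% and 7.49%. With total counts as scaling, which moves the median of all tested transcripts by -0.18, there were 20 and 38 members, given without the shares over shorter transcripts in that fit. Of the 46 members higher at 6 h, 30 also had a higher response at 6 h than at 1 h, and of the 28 lower ones, 22 had a lower one. These 2 comparisons share libraries, and the difference contains the 6 h response itself. Such an overlap is thus partly built in, and it was not counted over shorter transcripts.

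The member of 13938 bases had the largest difference, with log2 fold changes of -0.30 at 1 h and 2.60 at 6 h (difference 2.89 with SE 0.46, adjusted p = 0.000901 in edgeR). The members of 21704 and 14814 bases followed, at 2.69 and 2.41. In the lower direction came those of 13798, 14536 and 13307 bases, at -1.60, -1.58 and -1.39. The member of 13307 bases was called higher at 1 h and lower at 6 h, and with the culture as a block neither call held (edgeR adjusted p = 0.053 and 0.0708) while the difference of the responses did (0.000237). It had 139, 138, 138, 128 and 134 CPM after 1 h of KCl against 99.4 to 120 CPM at rest, and 65.4, 78.6 and 103 CPM after 6 h against 214, 184, 206 and 175 after 7 h of TTX/APV. The member of 14164 bases likewise was higher at 1 h and fell from 81.2 ± 10.3 (SD, n = 4) to 46.3 ± 6.75 CPM (SD, n = 3) at 6 h. Both of its calls ended with the block too (0.0818 and 0.0943). The members of 19300 and 12629 bases were higher at both times, and those of 15841 and 12974 bases lower at both. With the block this held at both times for the members of 12629 and 15841 bases.

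Members and shorter transcripts lay further apart in the comparison of 7 h with 2 h of TTX/APV than in those of genotype or KCl. Between 7 h and 2 h, 64 of 203 members were higher and 37 lower (31.5% and 18.2%; edgeR adjusted p under 0.05). All transcripts tested gave 28.3% and 25.7%. The other transcripts of at least 5 CPM at rest gave 13% higher and 46.4% lower, and weighted to the members' CPM classes 6.87% and 66.8%. The members' median log2 fold change was 0.07, and that of the shorter transcripts of at least 5 CPM was -0.65. This comparison crosses the step in depth and in counts on transcripts under 500 bases described above, and hours of TTX/APV and that step cannot be told apart.

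The direction of the members' own change depended on the scaling, and the distance to the shorter transcripts much less. Total counts in place of TMM factors moves the median of all tested transcripts by 0.40, and 105 members were then higher and 8 lower. With DESeq2 52 were higher and 64 lower. The shares of shorter transcripts called in these fits are not given. The members' median minus that of the shorter transcripts was 0.72 under TMM and 0.72 under total counts. Choosing transcripts at 2 h by a minimum level favours those that are high at 2 h, and with the level taken instead from the other 4 groups this distance was 0.58. The shares called also lay closer with that level. Of transcripts of 12000 bases or more, 31.7% were higher and 17.0% lower. In the shorter length classes the higher share ran from 13.3% (under 1000 bases) to 26.4% (2000 to 4000). The lower share there ran from 28.6% (8000 to 12000 bases) to 54.4% (under 1000).

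Among transcripts of at least 5 CPM, the median change at 7 h went up with length. With that level taken at rest, the median log2 fold change was -1.23 under 1000 bases, -1.14 at 1000 to 2000, -0.63 at 2000 to 4000, -0.37 at 4000 to 8000, -0.10 at 8000 to 12000 and 0.07 in the members. With the level taken from the other 4 groups the medians were -0.97, -0.93, -0.35, -0.21, -0.06 and 0.16. Over all transcripts tested, with no minimum level, the medians of the same classes were -0.13, -0.32, 0.15, -0.04, -0.02 and 0.20, which are not in order of length. Within the members, the medians of 5 length classes were -0.17 at 12000 to 13000 bases, 0.33 at 13000 to 14000, -0.08 at 14000 to 16000, 0.33 at 16000 to 20000 and 0.70 at 20000 or more, where 7 of 15 were higher and 1 lower. The genotype and the 6 h KCl comparisons showed no such order, as the plot of fold change by length shows. At 1 h of KCl the medians went up with length within a narrow band, from -0.09 under 1000 bases to 0.08 at 8000 to 12000 bases and 0.07 in the members.

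**Figure D5:**
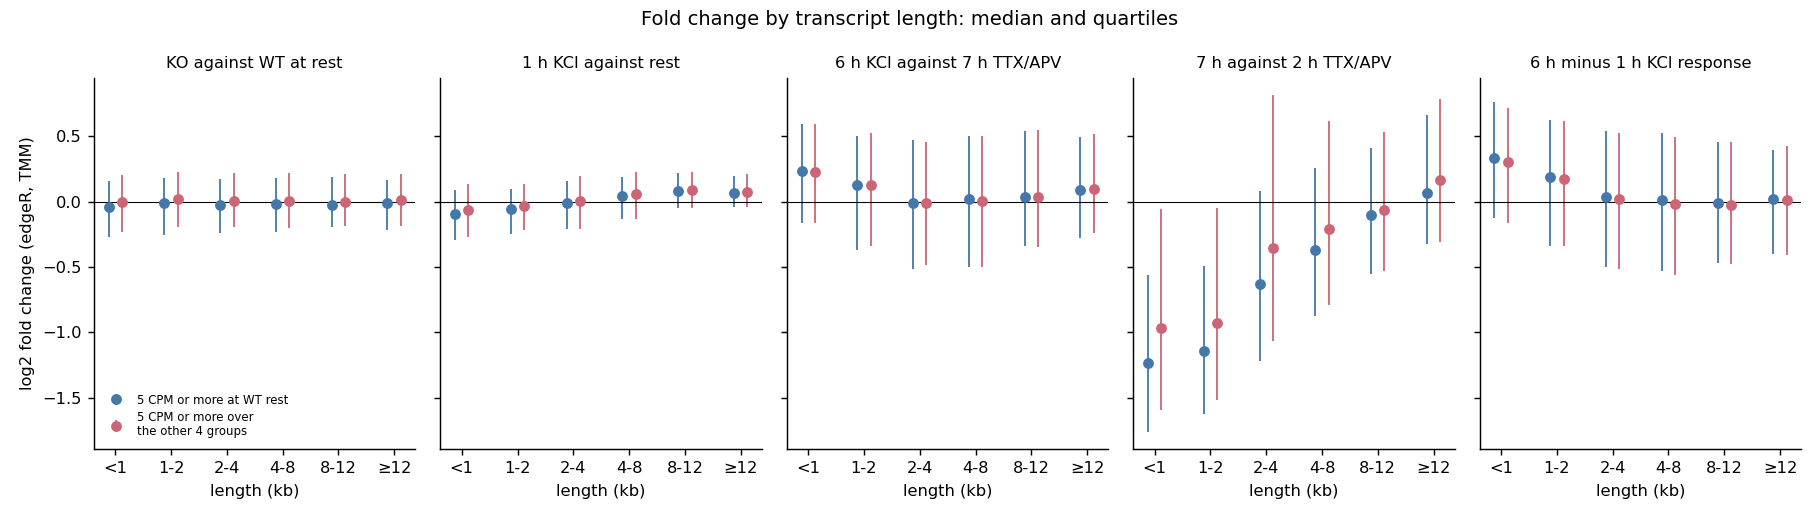
Median (point) and quartiles (line) of the log2 fold change in each of the 5 comparisons by transcript length in kilobases, for transcripts of at least 5 CPM in resting WT (blue) or over the other 4 groups (red); the class of 12 kb or more holds the members. At 7 h against 2 h of TTX/APV the medians run from -1.23 under 1 kb to 0.07 in the members, and in the KO comparison all lie near 0.

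The longest member, of 123179 bases, was among the clearest rises. It had 735, 844, 703, 815 and 908 CPM after 2 h of TTX/APV and 3498, 3060, 3487 and 3312 CPM after 7 h (log2 fold change 1.68 with SE 0.0719, adjusted p = 1.03e-06 in edgeR). It stayed at 2405, 3134 and 3194 CPM with 6 h of KCl, where it did not pass the test against 7 h of TTX/APV. The member of 40378 bases, the third longest, went from 17.8 ± 1.37 CPM (SD, n = 5) to 64.7 ± 10.1 (SD, n = 4) (log2 fold change 1.48, edgeR adjusted p = 1.81e-05) and on to 107 ± 6.71 CPM (SD, n = 3) with 6 h of KCl (log2 fold change 0.91, edgeR adjusted p = 0.00683). The member of 81843 bases had 12.02 ± 3.20 CPM (SD, n = 5) and 25.5 ± 8.61 (SD, n = 4) and did not pass (edgeR adjusted p = 0.0626). None of these 3 passed the test in KO or at 1 h of KCl.

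Larger fold changes were found in lower members. The member of 25851 bases had 36.5, 51.2, 37.8, 47.6 and 46.4 CPM at 2 h and 285, 285, 320 and 254 CPM at 7 h (log2 fold change 2.33 with SE 0.114, adjusted p = 1.33e-06 in edgeR). The member of 12956 bases went from 11.2 ± 1.64 CPM (SD, n = 5) to 82.6 ± 8.08 (SD, n = 4) and that of 13051 bases from 7.19 ± 1.16 to 44.9 ± 4.13 CPM. These 3 shared 1 pattern over the groups: their KO and 1 h KCl levels lay in or near the resting range, and with 6 h of KCl they kept most of the 7 h level, at 248 ± 39.6, 69.7 ± 12.7 and 33.1 ± 8.95 CPM (SD, n = 3).

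Falls at 7 h were led by the member of 14610 bases, whose level was unstable in every group. It ran from 0.0337 to 57.6 CPM over the 5 resting WT libraries and from 0.0171 to 39.6 CPM over the 7 KO libraries. After 7 h it was at most 4.22 CPM, with a log2 fold change of -4.80 ± 1.48 (SE) and an edgeR adjusted p of 0.0216, which rose to 0.0534, 0.0516 and 0.0559 without 7 h culture 3-4, 3-7 or 4-4 and to 0.08 with the block. The deposited estimates divide fragments among transcripts that share sequence, and the values given are those estimates. The member of 12134 bases fell from 245 ± 51.4 CPM (SD, n = 5) to 116 ± 10.1 (SD, n = 4) at 7 h and was 225 ± 1.15 CPM (SD, n = 3) with 6 h of KCl, higher again (log2 fold change 1.14, edgeR adjusted p = 0.00147). The member of 14141 bases had the same course, at 111 ± 35.2, 64.1 ± 7.47 and 161 ± 6.25 CPM, and in KO averaged 193 ± 37.9 CPM (SD, n = 7; edgeR adjusted p = 0.0547).

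Over the comparisons of genotype, 1 h and 6 h of KCl and hours of TTX/APV, 74 of the 205 members were called in none, 13 in at least 3 and 0 in all 4. These totals were counted for the members only, without the same count over shorter transcripts. At 7 h against 2 h of TTX/APV alone, 49.8% of members and 59.4% of the other transcripts of at least 5 CPM were called. The member of 24060 bases, the highest in CPM, passed none of the 4 comparisons. It had 1610, 1734, 1632, 1624 and 1805 CPM in resting WT, from 1291 to 1836 with a median of 1634 in KO, and 1643 to 1802 after 1 h of KCl. It had 2191 to 2424 CPM after 7 h of TTX/APV and 1914, 2081 and 2036 with 6 h of KCl, and its log2 fold change between 7 h and 2 h was 0.09 ± 0.0544 (SE) after TMM scaling.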

How the data were processed

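The 24 RNA-seq libraries were made with a stranded total RNA kit from DNase-treated RNA, per the labels' protocols. The authors deposited 1 table per library with each transcript's length, effective length, estimated count and TPM value; kallisto 0.44.0 and Trim Galore are named in the submitters' processing notes. The 12 ATAC-seq libraries were not used here. The members and lists were chosen with earlier results of these data known. Of the listed transcript identifiers, 0 matched the reference tables of gene names and sequences, so the lists of gene symbols drawn up for markers and pathways were not used and no sequence is shown.

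Deposited estimated counts were rounded to whole numbers, filtered with filterByExpr, scaled by TMM and tested over all transcripts with edgeR 4.0.16 (glmQLFit, robust; R 4.3.3), with Benjamini-Hochberg adjusted p under 0.05 as the threshold. SE is the log2 fold change divided by the square root of F. CPM is the estimated count per 1000000 of the library's sum, with no TMM factor. The fits were tested on simulated data. DESeq2 1.42.0, other scalings, filters, thresholds, an offset for effective length and libraries left out singly were the alternatives. Named members are, per comparison, the 3 largest and 3 smallest log2 fold changes past the threshold, the 3 longest and the 3 highest in CPM and in TPM; others named were chosen after their values were seen. Counting noise and library number limit precision, and p-values measure the spread between libraries that the series describes as biological replicates.

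WT libraries carry 5 culture codes, as many as the series states WT replicates, so libraries of 1 code were taken as 1 culture. Same-code libraries deviated together only weakly: the correlations of their deviations from the group means over transcripts ran from -0.00 to 0.11 for 1 h KCl and rest (5 pairs), from 0.04 to 0.09 for 6 h KCl and 7 h TTX/APV (3 pairs) and from -0.02 to 0.04 for 7 h and 2 h TTX/APV (4 pairs). For code 3-4 the best other code correlated more, at 0.12 against -0.00 for 1 h KCl and rest and 0.09 against -0.02 for 7 h and 2 h. The same held for code 3-7 at 1 h KCl and rest, at 0.07 against 0.06. In the remaining pairs the same code correlated more. The block rests on this reading of the codes. Blocked counts are given where they differ by over 1.5 times. KO and WT share no code.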

Additional observations from a re-analysis of the deposited data

Results flagged for a closer look

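In 8 of 124 group values checked, over the members' share and the 30 named members, the highest or lowest library stood apart from the rest by Dixon's criterion, which chance meets in about 1 of 20. In resting WT, the member of 21704 bases had 5.57 CPM in culture 4-2 (nearest other 22.9), and that of 81843 bases had 6.41 CPM in culture 3-4 (nearest other 12.4). In resting KO, culture 1-1 was low for the members of 19300 bases (28.2 CPM, nearest 41.8) and 123179 bases (517 CPM, nearest 701). Culture 2-3 was high for those of 21704 bases (52.4 CPM, nearest 39.7) and 13307 bases (114 CPM, nearest 95.5). The member of 14141 bases had 161 CPM in 1 h KCl culture 4-3 (nearest 103), and that of 14610 bases had 4.22 CPM in 7 h TTX/APV culture 4-2 (nearest 0.429).

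For 15 named members the response to 6 h of KCl differed from that to 1 h in edgeR's test of the difference. The 6 h response was the higher one for the members of 13938 (log2 difference 2.89), 21704 (2.69), 14814 (2.41), 12629 (2.19), 14141 (1.55), 40378 (1.04), 12134 (0.97), 14305 (0.47) and 14342 bases (0.38). It was the lower one for the members of 13798 (-1.60), 14536 (-1.58), 13307 (-1.39), 12647 (-1.34) and 14164 bases (-1.12). The member of 15841 bases fell less at 6 h than at 1 h (difference 1.14).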

How the results depend on the processing

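Each named member kept its direction in the comparison that named it under the alternatives run there. At 7 h, of the 37 members called lower, 9 had a positive log2 fold change with scaling by total counts, among them those of 13749, 14342 and 14814 bases, and 0 of the 64 called higher had a negative one. With scaling by total counts, the members' median log2 fold change was -0.11 at 6 h of KCl, 0.47 at 7 h of TTX/APV and -0.16 for the 6 h minus the 1 h response. At 7 h it was -0.0838 with DESeq2, -0.00241 with its size factors, -0.00924 with all 24 libraries in one fit and -0.12 with no filter. DESeq2 called 37 members in KO and 19 at 1 h of KCl; without a filter 12 were called in KO. With the replicate block 3 were called at 1 h and 23 at 6 h of KCl; the block changed no other count by over 1.5 times, and ended 4 of the 7 calls at 1 h (13307, 14164, 14754 and the lower 12974-base member) and 52 at 6 h, 13 at 7 h and 1 for the difference of responses. No paired analysis was possible because KO and WT share no culture code. A length of at least 10000 bases called 45 in KO, 16 at 1 h, 145 at 6 h, 223 at 7 h and 124 for the difference of responses, and 15000 bases called 2, 2, 21, 36 and 16. A changed length changes the size of the set, so these counts are not to be compared with those of the members. All counts of calls in this paragraph are given without the share over shorter transcripts. At 7 h, with 10000 bases the median was 0.00255 and lay 0.66 above the others, with 15000 bases 0.30 and 0.95, with 2 CPM 0.17 and 0.82, and with the level from the other 4 groups 0.16 and 0.58. With 15000 bases the 6 h median was 0.21, 0.15 above the others, and that of the difference of responses was 0.10, 0.00915 above them.

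The members' shares of counts in resting WT, KO, 1 h KCl, 7 h TTX/APV and 6 h KCl were 7.18%, 6.79%, 7.42%, 8.56% and 8.99% with 10000 bases, 1.31%, 1.29%, 1.35%, 2.16% and 2.19% with 15000 bases, and 0.363%, 0.332%, 0.399%, 0.407% and 0.448% of TPM. Without the longest member, an alternative chosen after seeing the data like the distance to the others, they were 4.55% at 7 h TTX/APV and 4.82% at 6 h KCl.

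Leaving out each library in turn called 12 to 22 in KO, 5 to 9 at 1 h, 50 to 64 at 6 h, 92 to 106 at 7 h and 52 to 59 for the difference of responses. These are counts of members only, without the share over shorter transcripts. The medians ran from -0.02 to 0.02, 0.05 to 0.09, 0.04 to 0.11, 0.0466 to 0.15 and -0.03 to 0.06, and lay 0.00 to 0.04, 0.06 to 0.10, -0.01 to 0.08, 0.70 to 0.77 and -0.11 to -0.0151 above the others. The shares ran from 3.57% to 3.64%, 3.45% to 3.51%, 3.71% to 3.80%, 4.82% to 4.93% and 5.05% to 5.23%. The part of depth in the spread of members under 10 CPM was not tested.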
